A study of Rattus norvegicus with 12 samples.

Results

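The genes described here were 6 carriers of the mitochondrial inner membrane, Slc25a10, Slc25a23, Slc25a27, Slc25a29, Slc25a45 and Slc25a48, together with Timm8a2, which is a small Tim chaperone and not a carrier. They were 7 of the 20842 genes in the count table, and of the 1976 genes in it for which a symbol was known. They were selected on measured values, the fold changes and adjusted p-values by which the study listed changed genes in these same libraries. Slc25a29 was listed for VAMP7KO against WT, Slc25a48 for both knockouts against WT, and the other 5 for ATG5KO against WT. Part of the ATG5KO list was not used here, so whether it also lists Slc25a29 is not known. A change in a comparison that listed, or may have listed, a gene is therefore given below as a description, without a test.

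RNA was sequenced from NRK cells, a rat kidney line labelled as epithelial, in 3 genotypes with 4 replicates each. The unedited cells are called WT, the cells lacking VAMP7, a SNARE protein of late endosomes and lysosomes, VAMP7KO, and the cells lacking ATG5, a protein of the autophagosome conjugation machinery, ATG5KO. All 12 libraries came from cells in growth medium with no treatment. The knockouts were made with CRISPR and grown from sorted single cells, so each stands for 1 clone, and a difference of genotype cannot be told apart from a difference of clone. The study's methods call the 4 replicates independent, with RNA of a culture dish for each library, and p-values measure the spread between these libraries.

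Library totals ran from 21090858 to 31525111 counts. Levels are given as CPM, the counts scaled to the effective library size after TMM normalization. The floor was set at 3 counts in a library, equal to 0.0986 to 0.139 CPM, and it covers counting error only. Vamp7 itself was at 111.1 ± 3.26 CPM in WT (SD, n = 4), 46.2 ± 5.17 CPM in VAMP7KO and 128.2 ± 2.15 CPM in ATG5KO, so its reads fell to 41.6% of WT in the libraries labelled VAMP7KO. Atg5 was not analysed here. Within every genotype the libraries of replicates 1 and 2 stood apart from those of replicates 3 and 4. Of 10 epithelial markers 1 had a known symbol, the keratin Krt8, which lay between 646 and 875 CPM in WT, 452 and 571 CPM in VAMP7KO, and 552 and 780 CPM in ATG5KO. The summed level of 6 of 11 fibroblast and mesenchymal markers ranged from 523 to 1447 CPM in WT, 1039 to 3166 CPM in VAMP7KO and 2177 to 3952 CPM in ATG5KO. Col1a1 made up most of that sum in WT, and the members did not move together, with means over WT, VAMP7KO and ATG5KO of 0.334, 0.113 and 143.4 CPM for Thy1 and of 3.74, 167.8 and 68.8 CPM for Lum. Of these 6, Fap had 0 counts in all 8 knockout libraries and 27, 21, 3 and 0 counts in WT, so the ranges overlapped. Dcn was at the floor in 3 of the 4 WT libraries. Symbols were known only for genes that the study had listed as changed, so markers not listed as changed are missing from both sets. The part of these marker levels in the results was not tested.

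Carriers of the SLC25 family span the inner mitochondrial membrane and exchange metabolites, nucleotides, amino acids and cofactors between the cytosol and the matrix. They are encoded in the nucleus, made in the cytosol and brought to the inner membrane through the outer membrane pore, with small Tim chaperones holding them in the intermembrane space. Kidney epithelium depends on mitochondrial metabolism for the transport of solutes.

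The upstream sequences of the genes, without those of Slc25a27 and Slc25a45, are shown to let their composition be compared. All 7 matched a RefSeq promoter window of 300 bases on GRCr8, from 250 bases before the annotated start to 50 after it. Capitals mark the letters CCAAT of the CCAAT box, GGGCGG of the GC box and, in Timm8a2, ACTTCCGG, on either strand, and the stretches are written 5′ to 3′ on the strand of the gene. The first is the window of Slc25a10 before its start, chr10:106264146-106264395 (+). The other stretches cover less of their windows, and matches outside them are not shown. The second and the third, of Slc25a29, chr6:133517323-133517415 (-), and Slc25a23, chr9:1985366-1985503 (-), are limited to bases in no annotated gene. The fourth is 28 bases of Slc25a48 around its CCAAT, chr17:8172489-8172516 (-), which lie within the annotated span of Gm3045l. The last 2 are 28 bases each around the ACTTCCGG matches of Timm8a2, chr15:105533978-105534005 (+) and chr15:105534025-105534052 (+), within its own annotated span.
Slc25a10: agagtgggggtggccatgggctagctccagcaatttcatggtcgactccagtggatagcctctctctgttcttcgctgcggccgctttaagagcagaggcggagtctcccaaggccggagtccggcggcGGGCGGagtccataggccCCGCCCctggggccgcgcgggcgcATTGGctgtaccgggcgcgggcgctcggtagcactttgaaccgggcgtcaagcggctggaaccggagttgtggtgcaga
Slc25a29: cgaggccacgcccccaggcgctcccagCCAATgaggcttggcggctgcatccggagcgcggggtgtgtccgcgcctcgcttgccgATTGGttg
Slc25a23: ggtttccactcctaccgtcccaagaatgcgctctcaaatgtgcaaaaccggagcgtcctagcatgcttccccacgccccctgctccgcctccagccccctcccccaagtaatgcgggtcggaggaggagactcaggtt
Slc25a48: gccatgtcatCCAATctcctcccattta
Timm8a2, upstream match: cagccatgatACTTCCGGttcctgtttt
Timm8a2, downstream match: tggatgggatACTTCCGGtctttctccg

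The windows differed in composition. That of Slc25a29 held 37 CpG dinucleotides, more than 93.8% of 21842 windows of protein-coding genes, and that of Slc25a10 held 28, more than 83.2% of them, beside a median of 11. Slc25a48, the gene with the lowest share of WT reads in VAMP7KO, had 6 CpG in its first window, more than 35.3% of all windows. The 8 bases ACTTCCGG, searched on both strands as the element of the factor GABP, were found in Timm8a2 alone of the 7 genes, at -70 and -23 counted with 0 at the annotated start. They occur at least once in 4.78% of all windows and at least 2 times in 0.504%. The letters CCAAT were in 5 of the 7 genes, all but Slc25a45 and Timm8a2, and in 37.96% of all windows, and GGGCGG in 4 of the 7 and 41.8%. The letters CACGTG of the E-box were in Slc25a48 alone, 3 times in the second of its 2 windows, and occur at least once in 7.01% of all windows and at least 2 times in 0.618%. TATAAA was in 2 of the 7 and 13.02%, with overlapping matches on both strands in Timm8a2, and TGACGTCA was in none of the 7 and 2.10% of all windows. The element of the factor NRF1 was also searched, found in none of the 7 and in 5.66% of all windows. A match of letters is a description and shows no binding.

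Slc25a48 (ENSRNOG00000012040), which is linked to the uptake of choline into mitochondria, moved in opposite directions in the knockouts. Its WT libraries held 357, 356, 270 and 253 counts, the VAMP7KO libraries 3, 6, 12 and 11, and the ATG5KO libraries 643, 863, 571 and 450, for replicates 1 to 4. No library of one genotype overlapped with a library of another. On the CPM scale the levels were 10.6 ± 1.88 in WT (SD, n = 4), 0.314 ± 0.164 in VAMP7KO and 25.3 ± 5.36 in ATG5KO, so VAMP7KO was at 2.97% of WT, or 33.6-fold lower, and ATG5KO at 2.39 times WT. The fitted log2 fold changes were -5.05 (SE 0.30) and 1.25 (SE 0.20). Between the knockouts the log2 difference of VAMP7KO from ATG5KO was -6.30 (SE 0.29). In bulk RNA, fewer cells with the transcript and less transcript per cell cannot be told apart.

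Slc25a29 (ENSRNOG00000004351), a carrier of the basic amino acids arginine and lysine, was lower in both knockouts. Its WT libraries held 50, 56, 87 and 82 counts, those of VAMP7KO 5, 2, 19 and 11, and those of ATG5KO 6, 7, 11 and 3. All 8 knockout libraries lay below all 4 WT libraries, and the knockouts overlapped each other. The level was 2.35 ± 0.631 CPM in WT (SD, n = 4), 0.349 ± 0.273 CPM in VAMP7KO and 0.264 ± 0.106 CPM in ATG5KO, which is 14.8% and 11.2% of WT. The VAMP7KO change, which chose the gene, was -2.83 on the log2 scale (SE 0.38). The ATG5KO change was -3.13 (SE 0.40), lower in 4 of 4 pairs of equal replicate number. It is given without a test, since the ATG5KO list may also hold the gene. Of all 13141 genes tested in ATG5KO against WT, 46.3% were called and 22.7% were called lower. Both comparisons share the WT libraries. VAMP7KO against ATG5KO gave a log2 difference of 0.30 (SE 0.47).

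Slc25a10 (ENSRNOG00000036693), the dicarboxylate carrier that exchanges malate and succinate for phosphate, had the most reads behind its values. WT held 814, 857, 551 and 493 counts, VAMP7KO 1000, 718, 643 and 523, and ATG5KO 1114, 1589, 1257 and 955. In CPM the levels were 23.2 ± 6.27 in WT (SD, n = 4), 27.7 ± 6.16 in VAMP7KO and 49.0 ± 5.31 in ATG5KO. The ATG5KO libraries lay above all others, at 2.11 times WT (log2 1.11, SE 0.09), whereas WT and VAMP7KO overlapped. VAMP7KO was 1.19 times WT, higher in 4 of 4 pairs of equal replicate number, with a log2 fold change of 0.26 (SE 0.09). The WT libraries are those of the comparison that listed the gene, so this difference is not independent of that choice. That difference missed the threshold, with a Benjamini-Hochberg adjusted p of 0.0697 in edgeR's quasi-likelihood test. It passed with the replicate set as the block, with only the 2 genotypes compared, and in replicates 3 and 4 only. By the same edgeR test the adjusted p was 0.593 with no replicate block, and up to 0.243 with single libraries left out.

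Slc25a27 (ENSRNOG00000010592), also known as UCP4, belongs to the uncoupling protein branch of the family. Its counts were 42, 47, 16 and 9 in WT, 30, 16, 13 and 7 in VAMP7KO, and 102, 84, 80 and 69 in ATG5KO. ATG5KO lay above the other genotypes in every library, at 3.52 times WT, with 3.43 ± 0.885 CPM against 0.973 ± 0.646 CPM (SD, n = 4) and a log2 fold change of 1.97 (SE 0.34). VAMP7KO, at 0.621 ± 0.311 CPM, was 63.8% of WT and lower in 4 of 4 pairs, and the ranges overlapped. Its log2 fold change was -0.59 (SE 0.38), with an adjusted p of 0.293 by edgeR's quasi-likelihood test. The WT libraries are again those of the comparison that listed the gene.

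Slc25a45 (ENSRNOG00000030616), another member of the carrier family, was counted sparsely outside ATG5KO. The libraries held 8, 11, 3 and 6 counts in WT, 11, 1, 10 and 6 in VAMP7KO, and 20, 34, 56 and 54 in ATG5KO. The ATG5KO libraries were above all of the others, at 1.65 ± 0.724 CPM against 0.241 ± 0.118 CPM in WT (SD, n = 4), 6.86 times as high (log2 2.69, SE 0.53). VAMP7KO, at 0.255 ± 0.151 CPM, could not be separated from WT at this depth, with a log2 fold change of 0.09 (SE 0.62) and a sign that turned when some libraries were left out.

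Slc25a23 (ENSRNOG00000047781), a calcium-regulated carrier that exchanges ATP-Mg for phosphate, was detected above the floor in ATG5KO alone. WT held 1, 0, 0 and 0 counts, VAMP7KO 0, 3, 0 and 2, and ATG5KO 13, 15, 26 and 21. All libraries of WT and VAMP7KO were at the floor, so no fold is given between them. ATG5KO, at 0.756 ± 0.227 CPM (SD, n = 4), was at least 7.36-fold higher than WT and at least 6.47-fold higher than VAMP7KO, both against the floor of each library.

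Timm8a2 (ENSRNOG00000013835), a small Tim chaperone of the intermembrane space that assists the import of membrane proteins, was also highest in ATG5KO, while WT and VAMP7KO overlapped. Its counts were 0, 1, 2 and 1 in WT, 8, 1, 1 and 3 in VAMP7KO, and 111, 147, 85 and 117 in ATG5KO. All 4 WT libraries and 3 of the 4 VAMP7KO libraries were at the floor, and ATG5KO stood at 4.67 ± 1.09 CPM (SD, n = 4), at least 45.5-fold higher than WT. In VAMP7KO 1 library, with 8 counts, carried most of the reads. Timm8a2 is a close relative of Timm8a1, so reads that match both cannot be assigned with certainty.

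**Figure D1:**
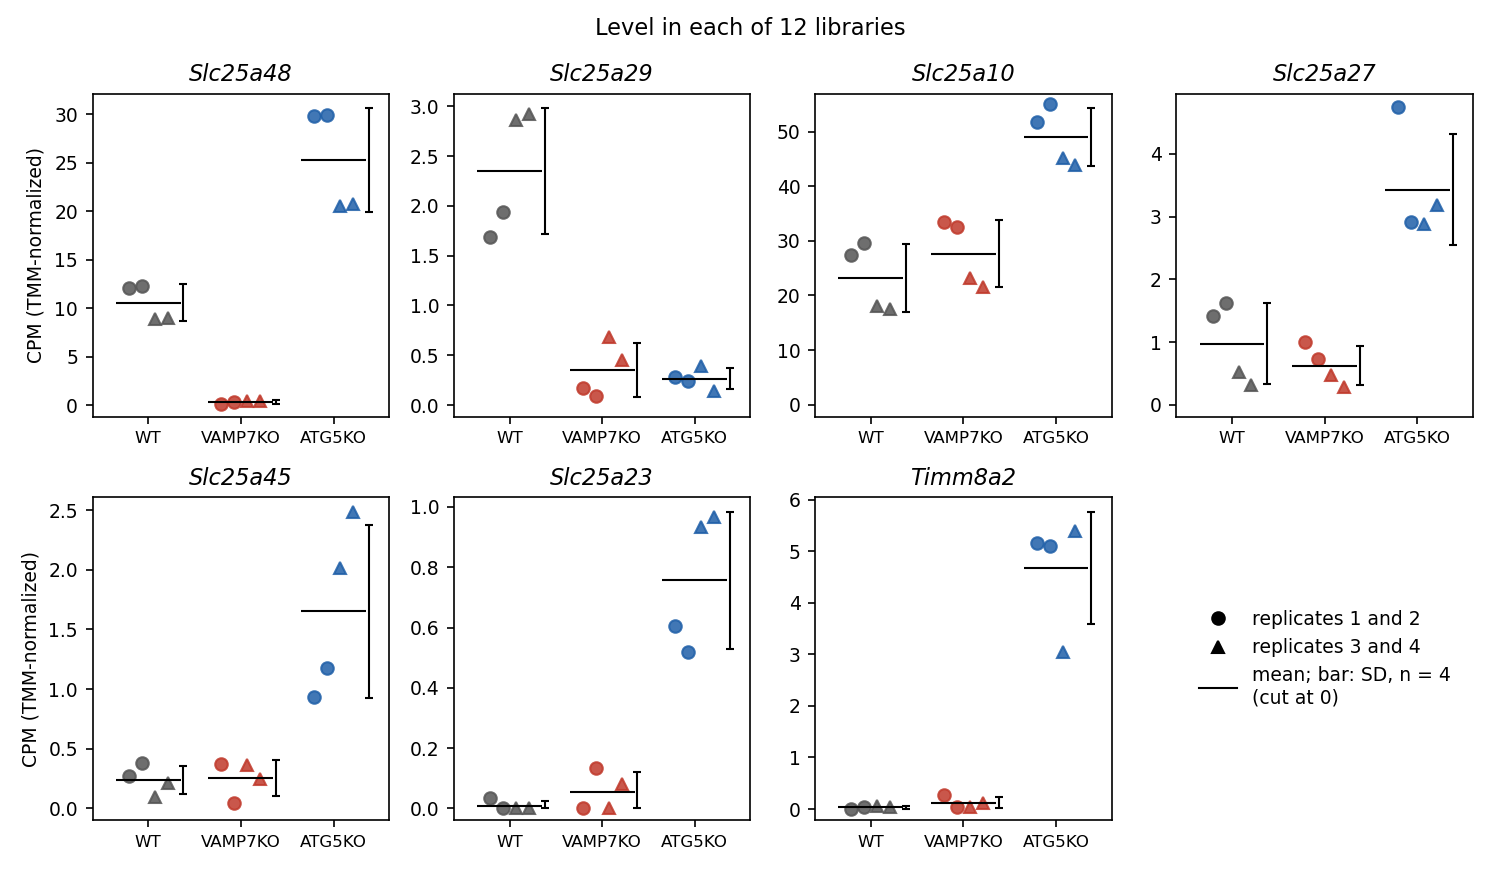
Level of each of the 7 genes (TMM-normalized CPM, y axis, 1 scale per panel) in the 4 libraries of WT, VAMP7KO and ATG5KO, with circles for replicates 1 and 2, triangles for replicates 3 and 4, lines for the mean and bars for the SD. ATG5KO lies above WT in 6 panels and below it in that of Slc25a29, and VAMP7KO lies below WT without overlap in those of Slc25a48 and Slc25a29.

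In VAMP7KO, 2 of the 7 genes did not overlap with WT, both lower, beside 15.5% of all genes tested in either direction and 8.74% lower, and both were genes that this comparison had listed. Of the 5 genes listed for ATG5KO alone, Slc25a23, Slc25a45 and Timm8a2 passed the filter on low counts only through ATG5KO and could hardly be called between WT and VAMP7KO. Of the other 2, Slc25a10 and Slc25a27, 0 were called in VAMP7KO against WT by edgeR's quasi-likelihood test, beside 22.9% of all genes tested. That test reuses the WT libraries of the comparison that listed them, and is not independent of it. Slc25a10 had an unadjusted p under 0.05, and the DESeq2 Wald test also called 0. In ATG5KO, 7 of 7 did not overlap with WT, 6 higher and 1 lower, beside 28.2% of all genes in either direction, 14.9% higher and 13.3% lower, a count that the choice of members largely fixes. VAMP7KO lay below ATG5KO without overlap in 6 of 7, beside 15.3% of all genes lower and 28.4% in either direction, and all 6 had been listed for ATG5KO, whose libraries this comparison reuses. The median log2 fold change of the members, with genes at the floor taken at their bound, was 1.97 over 7 members in ATG5KO, beside 0.01 over all genes tested. The choice of members largely fixes that median too, since 6 of the 7 had been listed for ATG5KO. In VAMP7KO the median was -0.25 over 6 members without Slc25a23, which has no bound, and 0.09 over 7 with fitted values. Its sign turns with that choice, and the median over all genes tested was 0.00. All 7 passed the filter, but Slc25a23 and Timm8a2 reached 10 counts in the 4 ATG5KO libraries only, and so had to differ.

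**Figure D2:**
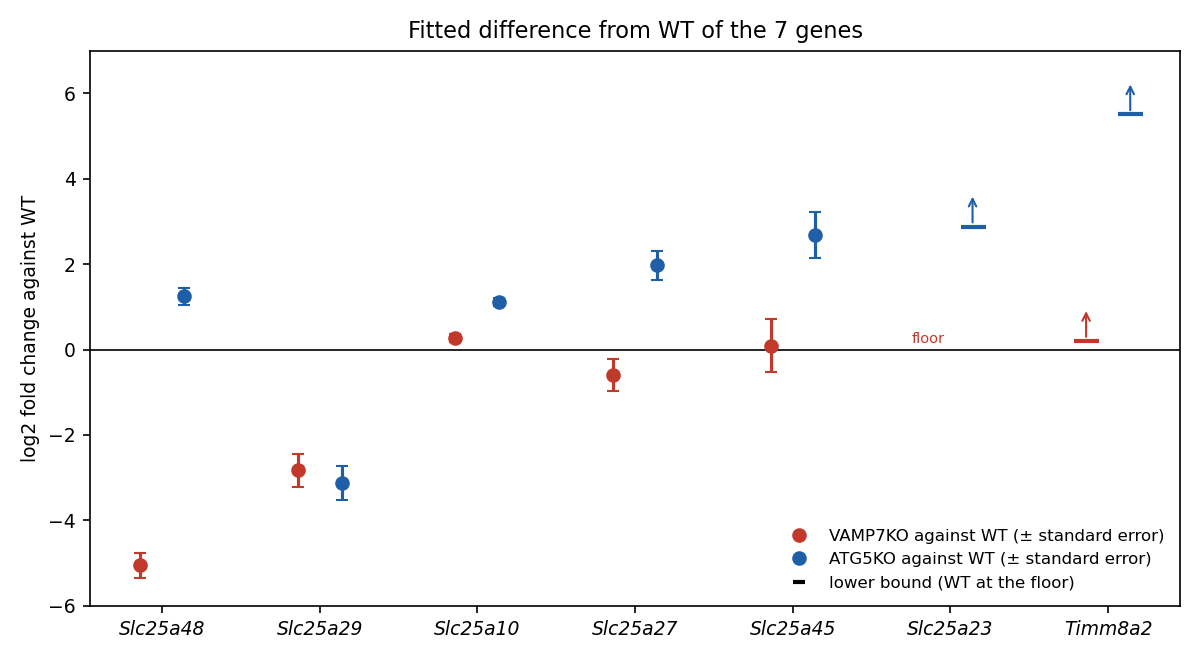
Log2 fold change against WT (y axis) of each gene in VAMP7KO and ATG5KO, with points for the fit and bars for its standard error, and dashes with arrows for lower bounds where WT is at the floor, and the word floor where both genotypes are at it. Slc25a48 stands at -5.05 in VAMP7KO and 1.25 in ATG5KO, while Slc25a29 stands at -2.83 and -3.13.

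The effect of a knockout was compared between the sets of replicates, as the interaction of genotype and set, since levels moved with the set in all genotypes. Slc25a10, for example, went from 28.6 CPM in replicates 1 and 2 to 17.8 CPM in replicates 3 and 4 of WT, from 32.9 to 22.4 CPM in VAMP7KO, and from 53.4 to 44.6 CPM in ATG5KO. Slc25a27 went from 1.52 to 0.423 CPM in WT, 0.863 to 0.379 CPM in VAMP7KO and 3.83 to 3.03 CPM in ATG5KO, lower in replicates 3 and 4 throughout. Slc25a29 went the other way in WT, from 1.81 to 2.89 CPM, and in VAMP7KO, from 0.129 to 0.569 CPM, with 0.261 and 0.267 CPM in ATG5KO. Slc25a45 in ATG5KO was at 1.05 CPM in replicates 1 and 2 and 2.25 CPM in replicates 3 and 4, and Slc25a23 there at 0.562 and 0.951 CPM. Of the 7 genes, 1 was called for VAMP7KO, beside 16.5% of all genes tested, and 2 for ATG5KO, beside 28.9%. These shares are near the background. Slc25a23, Slc25a45 and Timm8a2 passed the filter only through ATG5KO and could hardly be called for VAMP7KO. The share for VAMP7KO therefore says nothing about those genes. For ATG5KO, Slc25a23 and Timm8a2 could hardly be called either, with all WT libraries at the floor and SEs of 2.62 and 1.66. For Slc25a48 the VAMP7KO effect was less negative in replicates 3 and 4, by 1.77 on the log2 scale (SE 0.47, adjusted p = 0.0145 by edgeR's quasi-likelihood test). Its VAMP7KO level was 0.186 CPM in replicates 1 and 2 and 0.443 CPM in replicates 3 and 4, values of a few counts, and without VAMP7KO replicate 1 the difference was 1.13 with an adjusted p of 0.193 by the same edgeR test. The call was also lost without VAMP7KO replicate 3 (adjusted p = 0.0619) or 4 (adjusted p = 0.0572) in that edgeR test. The ATG5KO effect was larger in replicates 3 and 4 by 0.42 for Slc25a10 (SE 0.12, adjusted p = 0.0159) and by 1.50 for Slc25a27 (SE 0.48, adjusted p = 0.0275), in the same edgeR test. Leaving out single libraries ended the call of Slc25a10 in 2 of 12 fits, without WT replicate 2 or ATG5KO replicate 3, and that of Slc25a27 in 5 of 12, without WT replicates 2 or 4 or ATG5KO replicates 2, 3 or 4.

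**Figure D3:**
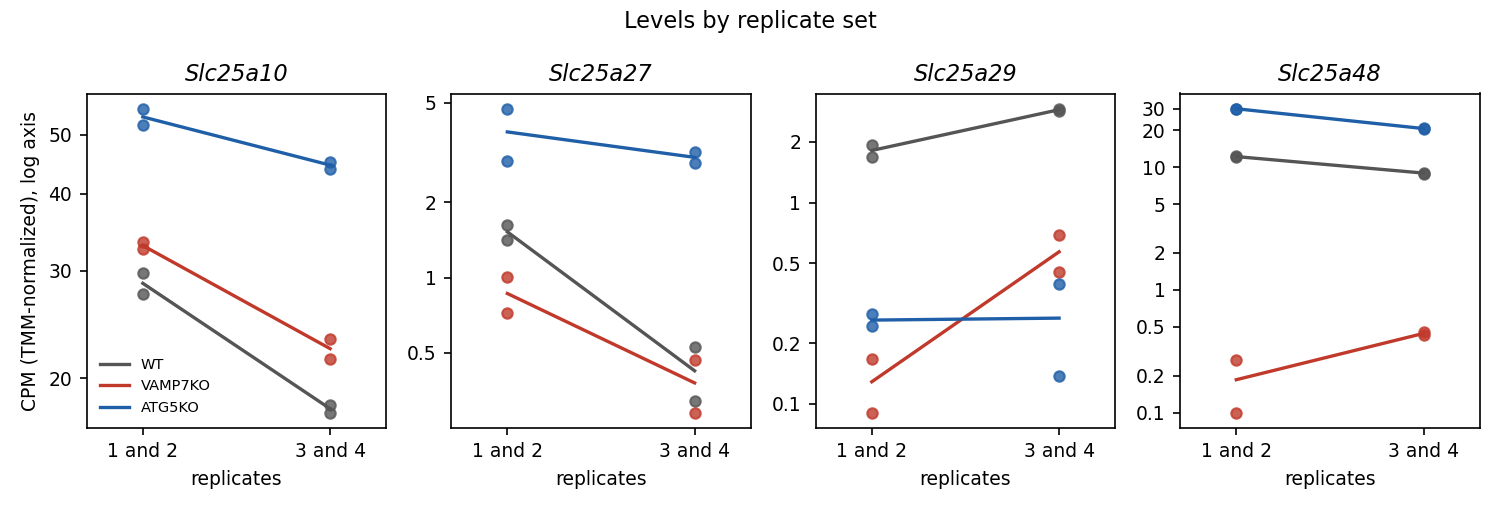
CPM on a log axis of 4 genes in replicates 1 and 2 and in replicates 3 and 4, with a point per library and lines joining the means of the sets in WT, VAMP7KO and ATG5KO. Slc25a10 was lower in replicates 3 and 4 in every genotype, while Slc25a48 fell in WT and ATG5KO and was higher in VAMP7KO, at 0.443 against 0.186 CPM.

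The genes whose log2 level over the 12 libraries was most like that of a member were taken from 1736 genes with a symbol, which come from the study's own lists of changed genes. Slc25a48 was closest to Arhgap8 (Pearson's r = 0.985) and Rps6ka1 (0.981), and Slc25a29 to Mcoln3 (0.965), a calcium channel of endosomes and lysosomes, and Ntf3 (0.957). Slc25a10 was closest to Loxl3 (0.991) and Bcl2l14 (0.990), Slc25a27 to Tmc8 (0.985) and Adam15 (0.982), and Slc25a45 to Fxyd6 (0.954) and C1qtnf9 (0.940). Slc25a23 was closest to Ctss (0.995), the lysosomal protease cathepsin S, and Amz1 (0.974), and Timm8a2 to Vnn1 (0.987) and Gprc5b (0.986). The 12 points share 3 genotypes and the sets of replicates, and the values are a description.

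Of the other genes of these pathways few had a known symbol. In the carrier family, 6 of 53 listed genes were named, all of them members, and of 25 genes of the TIM and TOM translocases and 8 of the calcium uniporter complex 0 were named. Of 7 small Tim chaperones 1 was named, Timm8a2. The rest were not analysed here.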

How the data were processed

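RNA-seq of 12 NRK libraries was analysed, 4 each of WT, VAMP7KO and ATG5KO, grouped by their labels. The authors trimmed reads with cutadapt 4.2, used bowtie 2.2.8 against rRNA, aligned to mRatBN7.2 by STAR 2.7.10b, and took gene counts from htseq-count 0.13.5 (Ensembl release 110). The deposited values are read counts per gene, not normalized. A separator missing from the header was restored by position, and 0 columns of per-sample values were left unused.

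Counts of the 13141 genes that passed filterByExpr (minimum count 10) were tested in R 4.3.3 with edgeR 4.0.16 and limma 3.58.1, using TMM and the quasi-likelihood test, all 12 libraries in one fit, with the replicate number as a block because the study's methods adjust for a batch that they do not name. P-values were adjusted by Benjamini-Hochberg over all genes tested and called under 0.05. The standard error was the size of the log2 fold change over the square root of F. Deviations from the genotype mean correlated at 0.571 to 0.691 between libraries of equal number, and at 0.536 to 0.689 between other libraries of the same set, so the numbers pair libraries no better than the set does. The interaction test used genotype and set without the number. Likeness used log2(CPM + 0.1). The test was tested on simulated data.

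Named genes are the 7 members, Vamp7, listed carrier and Tim genes, and the 2 most alike genes per member. Krt8 and the marker genes were named after their values were seen. The ATG5KO change of Slc25a29 was planned as a test and is given as a description, since part of the ATG5KO list was not used. The members and lists were chosen with earlier results of these data known. Symbols came from the study's lists of changed genes, whose fold changes, p-values and other values were not used. Alternatives were the size factors and, separately, the Wald test of DESeq2 1.42.0, no filter on genes, no replicate block, the set as block, 2 genotypes only, either set alone, and each library left out. Other steps used Python 3.11.15, pandas 2.3.3, numpy 2.4.6 and matplotlib 3.10.9.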

Additional observations from a re-analysis of the deposited data

Results flagged for a closer look

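In 3 of 21 groups of 4 libraries, 1 library stood far from the others, its gap to the nearest being above Dixon's critical share of the range of the group, and chance gives about 1 such group in 20. In WT, Slc25a23 had 1 count in replicate 1 and 0 in the other libraries, a gap of 1.0 of the range that rests on a single read. In ATG5KO, Slc25a27 was highest in replicate 1, at 4.74 CPM with the other libraries between 2.87 and 3.18 CPM, a gap of 0.836. In ATG5KO, Timm8a2 was lowest in replicate 3, at 3.05 CPM with the other libraries between 5.10 and 5.39 CPM, a gap of 0.875.

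The test of the interaction called 3 results as different between the sets of replicates. Of all genes tested, it called 16.5% for VAMP7KO and 28.9% for ATG5KO, so the members were near the background. With single libraries left out, Slc25a48 stayed called in 9 of 12 fits, Slc25a10 in 10 and Slc25a27 in 7. The difference on the log2 scale was 1.77 for Slc25a48 in VAMP7KO, 0.42 for Slc25a10 in ATG5KO and 1.50 for Slc25a27 in ATG5KO.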

How the results depend on the processing

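The described ATG5KO log2 fold change of Slc25a29 was -3.12 with no replicate block and ran from -3.37 to -2.82 with single libraries left out. Of the 5 members listed for ATG5KO alone, of which 3 passed the filter only through ATG5KO and could hardly be called, 0 were called in VAMP7KO against WT with any single library left out (0 to 0) and 0 with no replicate block. Of all genes, 1024 of 13141 were called with no replicate block. With single libraries left out, between 1923 of 13359 (without VAMP7KO replicate 1) and 3224 of 13315 (without ATG5KO replicate 2) were called. Slc25a10 was called, 1 member, with the replicate set as the block (adjusted p = 0.0431), with only the 2 genotypes compared (0.0382) and in replicates 3 and 4 only (0.00227), all by edgeR's quasi-likelihood test. In these settings 3554 of 13141, 3179 of 12536 and 5173 of 13114 of all genes were called. With only the 2 genotypes compared, 2 of the 5 members were tested. Slc25a45 in VAMP7KO turned to -0.53 in replicates 1 and 2 only, and ran from -0.34 to 0.60 with single libraries left out. Between 1 and 4 interaction results were called with single libraries left out, beside 3 with all of them, with the count at 1 without WT replicate 2 or without ATG5KO replicate 3.

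The described log2 fold changes moved by more than the spread between replicates in replicates 1 and 2 only for Slc25a29 in VAMP7KO (-3.72), Slc25a48 in VAMP7KO (-6.10), Slc25a23 (4.67) and Timm8a2 (7.87), and in replicates 3 and 4 only for Slc25a23 (7.68), Slc25a45 (3.82) and Timm8a2 (6.21), the last 3 in ATG5KO. With single libraries left out, ATG5KO values ran from 5.31 to 7.47 for Slc25a23, 6.36 to 7.58 for Timm8a2, 1.16 to 1.32 for Slc25a48, 1.05 to 1.19 for Slc25a10, 1.67 to 2.35 for Slc25a27 and 2.28 to 3.26 for Slc25a45, and VAMP7KO values from -3.19 to -2.58 for Slc25a29 and -5.36 to -4.64 for Slc25a48. Fitted values of Slc25a23 and Timm8a2 depend on the prior count and are no bounds. The cause was not tested.

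With the block, 3004 genes were called in VAMP7KO and 6081 in ATG5KO against WT, and 1024 and 3102 with no replicate block. In VAMP7KO 5249 were called in replicates 1 and 2 only, 5173 in replicates 3 and 4 only, 1954 without WT replicate 1 and 1923 without VAMP7KO replicate 1. Counts of a few reads limit Slc25a23, Slc25a45 and Timm8a2 in WT and VAMP7KO.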

Other observations

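Genes that act beside these carriers were listed with the members by their role, and those with a symbol were genes that the study had listed as changed, so their values are a description. They were named after their values were seen. Ppargc1a, a coactivator of mitochondrial biogenesis, was at 2.48 ± 1.35 CPM in WT (SD, n = 4) and had 0 counts in all 8 knockout libraries, at least 21.2-fold lower in VAMP7KO and at least 20.3-fold lower in ATG5KO. Sardh, a matrix enzyme of choline breakdown, was at 27.8 ± 6.28 CPM in WT, 56.4 ± 3.51 CPM in VAMP7KO and 48.8 ± 6.06 CPM in ATG5KO, higher in both knockouts. Aass, the first enzyme of lysine breakdown in the matrix, was at 35.1 ± 2.46 CPM in WT, 14.2 ± 1.91 CPM in VAMP7KO and 18.6 ± 1.42 CPM in ATG5KO, lower in both knockouts. The other named genes of arginine, ornithine and lysine use went other ways. Cps1, a urea cycle enzyme of the matrix, was at 0.556 ± 0.261 CPM in WT, 2.57 ± 1.19 CPM in VAMP7KO and at the floor in all 4 ATG5KO libraries. Odc1, which turns ornithine into putrescine, was at 393 ± 153 CPM in WT, 717 ± 190.5 CPM in VAMP7KO and 216 ± 47.5 CPM in ATG5KO. Its ATG5KO libraries, at 166 to 262 CPM, overlapped WT, which was at 278, 243, 530 and 520 CPM in replicates 1 to 4. Arg2, the mitochondrial arginase, was at the floor in all 4 WT libraries and 3 of the 4 VAMP7KO libraries and at 0.453 ± 0.413 CPM in ATG5KO, with 1 library there at the floor. Bbox1, the last enzyme of carnitine synthesis, was at 0.322 ± 0.143 CPM in WT, 0.185 ± 0.152 CPM in VAMP7KO and 0.759 ± 0.231 CPM in ATG5KO. WT and VAMP7KO overlapped, and 1 VAMP7KO library was at the floor. The lowest ATG5KO library, at 0.461 CPM, was barely above the highest WT library, at 0.460 CPM. Named were 1 of 5 listed genes of carnitine synthesis, 1 of 10 biogenesis regulators, 1 of 7 choline and one-carbon enzymes, and 4 of 7 genes of arginine, ornithine and lysine use.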
